A study of Mus musculus with 2 samples.

Results

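The 44 collagen genes were examined in the melanocytes of 2 droplet scRNA-seq libraries from mouse back skin. They were taken, out of the 32285 genes in the files, by symbol alone: Col, a number, the letter a and a number, as in *Col12a1*. A melanocyte was a barcode with at least 1 UMI (a counted RNA molecule) of *Dct*, a pigment enzyme gene, and fewer than 3 UMIs of the keratinocyte genes *Krt10* and *Krt14* together. It also had under 5% of UMIs from mitochondrial genes and more than 10000 UMIs in the early-anagen library or 5000 in the bulb library. This gave 2785 of 11010 barcodes in early anagen and 3734 of 4327 in the bulb.

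Both libraries held GFP+ cells sorted from Dct-rtTA; tetO-H2B-GFP mice, in which rtTA is driven from *Dct* and a doxycycline diet, here for 4 days, switches on a nuclear GFP. The early-anagen library (labelled Activated McSC) came from mice depilated at 8 weeks of age and killed 4 days later, at anagen II, and its cells were released with trypsin from skin whose dermis had been removed. The bulb library (labelled Differentiated Mc) came from hair bulbs dissected at anagen VI from mice of 5 weeks and was dissociated with collagenase and dispase. Cells of 4 mice were combined in each library, so there was 1 library per condition, the spread between mice was not measured, and no test across samples was possible. The telogen library was not analysed here. The kit differed (version 3 for early anagen, version 2 for the bulb), as did the dissociation, the age of the mice and the depth. Depilation is described only for the early-anagen mice. The condition cannot be told apart from any of these.

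Collagens are secreted or membrane-bound proteins built as trimers of chains, most of which carry long stretches of a triple helix. Fibrillar collagens (types I, III and V) make up the bulk of dermal fibres and come mainly from fibroblasts, type IV collagen forms the network of basement membranes, and the FACIT collagens, such as types XII and XVI, attach to fibrils or matrix without forming fibrils themselves. Melanocytes sit on a basement membrane beside keratinocytes, and RNA of collagen genes in a melanocyte library can also be carried over from broken fibroblasts, for which the proteoglycan genes *Dcn* and *Lum* are markers. Levels below are UMIs summed over melanocytes and scaled to counts per 1000000 UMIs (CPM). The assay counts molecules at their 3′ end, so a CPM is a share of molecules and was not divided by gene length. Intervals are 95% exact intervals and cover counting error only.

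The melanocytes were deep, with a median of 24528 UMIs in early anagen and 14287 in the bulb, and held all 8 melanocyte markers above 1 CPM in both libraries. The libraries shared 1 barcode in all and 0 among melanocytes. Of 8 fibroblast markers, only *Fbln1* was above 1 CPM (8.85 in early anagen and 6.37 in the bulb), and *Dpt* and *Mfap5* had 0 UMIs in both libraries. *Dcn* and *Lum* together had 13 UMIs in 11 early-anagen cells, or 0.172 CPM (0.0914 to 0.294). In the bulb they had 21 UMIs in 2 cells, or 0.376 CPM (0.233 to 0.574) and 20 of those UMIs lay in 1 cell. Neither library held a barcode without *Dct* and with at least 5 UMIs of *Dcn* and *Lum*, so the number of collagen UMIs that come with a *Dcn* UMI in a fibroblast could not be given. In the bulb 5 barcodes had at least 5 UMIs of *Dcn* and *Lum* and any *Dct*, and they held 1 collagen UMI among them. Keratinocyte markers were more frequent, with 26.3 CPM for the 6 genes in early anagen and 46.8 CPM in the bulb, most of it *Krt10* and *Krt17*. Endothelial and pericyte markers, of cells that make type IV and VIII collagen, summed to 0.251 and 0.436 CPM in early anagen and to 0.0358 and 0.0179 CPM in the bulb. Dermal papilla markers had 14.3 CPM in early anagen and 1.57 CPM in the bulb, nearly all *Vcan*, and immune markers 16.7 and 7.59 CPM, mainly *Cd74* and *Lyz2*. The part of these lists in the collagen levels was not tested.

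The early-anagen McSCs held far more collagen RNA than the bulb melanocytes. All 44 genes together had 355 CPM (351 to 359, 26887 UMIs) in early anagen and 15.01 CPM (14.0 to 16.1, 839 UMIs) in the bulb. A UMI was seen for 34 of the 44 genes in early anagen and for 27 in the bulb, against 19151 and 16128 of all genes. 8 genes had none in either library: *Col6a4*, *Col6a5*, *Col8a2*, *Col9a2*, *Col19a1*, *Col22a1*, *Col24a1* and *Col26a1*. A further 11 had at most 9 UMIs over both libraries, among them *Col1a1* and *Col3a1*. The remaining 25 genes carried nearly all of the signal, with 13 of the 44 at 1 CPM or more in early anagen and 3 in the bulb.

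**Figure D1:**
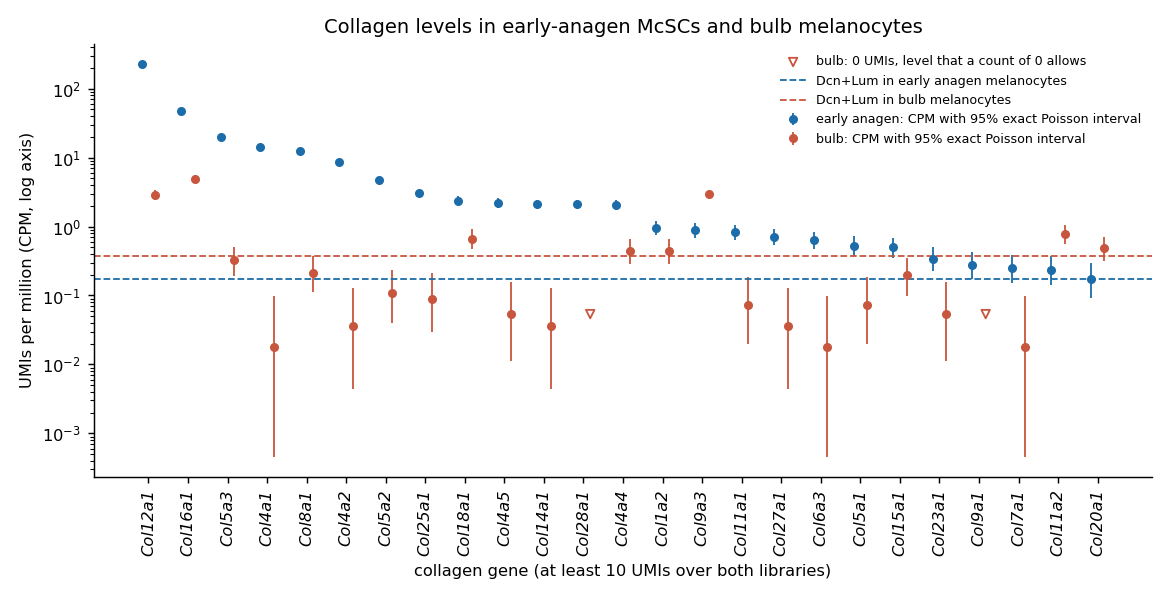
Level of each collagen with at least 10 UMIs over both libraries, in CPM on a log axis, with 95% exact Poisson intervals, in early-anagen McSCs (blue) and bulb melanocytes (red); dashed lines are *Dcn* plus *Lum* in the same cells, and open triangles mark 0 UMIs at the level that a count of 0 allows (3 UMIs). The blue points lie above the red ones for 22 of the 25 genes, and the exceptions are *Col9a3*, *Col11a2* and *Col20a1*.

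In early anagen the FACIT genes held most of it. *Col12a1*, the chain of type XII collagen, had 17199 UMIs, or 227 CPM (224 to 231), and alone made 64.0% of the collagen UMIs. It ranked 645th by UMIs among the 19151 genes detected in these cells. The study named *Col12a1* as stem-cell-enriched from these libraries together with a telogen library, and it also probed the gene by in situ hybridization. The level here is therefore not independent of the sequencing part of that evidence. *Col16a1*, the chain of type XVI collagen, followed with 3574 UMIs or 47.2 CPM (45.7 to 48.8). The FACIT class as a whole had 278 CPM in early anagen and 11.2 in the bulb, where it held all 3 genes of 1 CPM or more.

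The fibrillar class was led by chains of the minor fibrillar type V and not by type I or III. *Col5a3* had 19.6 CPM (18.7 to 20.7) and *Col5a2* 4.68 CPM (4.20 to 5.19) in early anagen, while their partner *Col5a1* had 0.53 CPM (0.38 to 0.72). The main fibroblast collagens were near the floor: *Col1a1* had 6 UMIs and *Col3a1* 1 UMI in 2785 early-anagen cells, and both had 0 in the bulb. *Col1a2*, the second chain of type I collagen, had more than its partner, with 73 UMIs or 0.964 CPM (0.756 to 1.21) in early anagen and 25 UMIs or 0.447 CPM (0.290 to 0.660) in the bulb. Those 73 UMIs lay in 69 cells, with at most 3 in a cell.

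Among basement membrane chains *Col4a1* had 14.4 CPM (13.6 to 15.3) and *Col4a2*, with which it assembles, 8.65 CPM (8.001 to 9.34) in early anagen. The chains *Col4a4* and *Col4a5*, best known from the kidney, had 2.05 and 2.21 CPM. In the bulb the class nearly vanished from the counts, with 1 UMI of *Col4a1*, 2 of *Col4a2* and 0.591 CPM for all 6 genes. *Col8a1*, a short-chain network collagen of vessel walls and of the cornea, had 12.7 CPM (11.9 to 13.5) in early anagen and 0.215 CPM (0.111 to 0.375) in the bulb. *Col25a1*, a membrane-spanning collagen, had 3.02 CPM (2.65 to 3.44) and 0.0895 CPM (0.0291 to 0.209). *Col17a1*, the hemidesmosome collagen of basal keratinocytes, had 4 UMIs in early anagen and 0 in the bulb, where the upper end of its interval was 0.0660 CPM.

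Positions are those of GENCODE vM21 in GRCm38. *Col12a1* spans chr9:79598991-79718831 on the minus strand, *Col16a1* chr4:130047840-130099283 on the plus strand, *Col5a3* chr9:20770050-20815067 on the minus strand and *Col8a1* chr16:57624258-57754737 on the minus strand. No gene on the same strand overlapped the last 1 kb of any of the 44, where a 3′ assay reads. *Col4a1* (chr8:11198423-11312826, minus) and *Col4a2* (chr8:11312805-11449287, plus) start head to head and their annotated spans overlap by 22 bases. Those bases, from RefSeq's promoter table (GRCm38.p6, plus strand, chr8:11312805-11312826), are shown because both genes start there and this pair also had the highest phi coefficient over cells, given with the pairs of chains.

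Col4a1/Col4a2 shared start: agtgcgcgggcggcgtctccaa

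The 250 bases before the start are shown for the 3 other genes that lay above both reference levels given next in early anagen and have an entry. A promoter entry was found for 35 of the 44 genes. Capitals mark the GC box letters GGGCGG on either strand in these 3 stretches only. The shared start above was not searched and is printed in lower case, although it holds the same letters.

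Col16a1 (chr4:130047590-130047839, plus): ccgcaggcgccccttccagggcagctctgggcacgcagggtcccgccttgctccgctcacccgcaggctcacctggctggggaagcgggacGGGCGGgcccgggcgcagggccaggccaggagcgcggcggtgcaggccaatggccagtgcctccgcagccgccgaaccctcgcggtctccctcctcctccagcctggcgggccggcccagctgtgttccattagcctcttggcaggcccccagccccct

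Col5a3 (chr9:20815068-20815317, minus): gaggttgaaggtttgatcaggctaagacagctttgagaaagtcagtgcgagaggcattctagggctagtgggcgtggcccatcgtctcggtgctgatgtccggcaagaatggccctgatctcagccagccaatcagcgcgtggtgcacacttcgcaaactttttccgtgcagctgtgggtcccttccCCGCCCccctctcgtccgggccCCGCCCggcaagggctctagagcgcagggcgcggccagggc

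Col8a1 (chr16:57754738-57754987, minus): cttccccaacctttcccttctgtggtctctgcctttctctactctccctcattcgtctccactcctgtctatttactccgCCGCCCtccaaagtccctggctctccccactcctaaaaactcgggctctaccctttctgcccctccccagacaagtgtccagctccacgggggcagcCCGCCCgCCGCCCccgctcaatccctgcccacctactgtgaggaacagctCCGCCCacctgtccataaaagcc

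The GC box occurred 1 time before *Col16a1*, 2 times before *Col5a3* and 4 times before *Col8a1*, and 32.7% of the 32851 promoter entries held it within the same 250 bases. The E-boxes CACGTG and CATGTG, the core letters bound by MITF among other factors, and the TATA box TATAAA, each searched on both strands, were in none of the 3 windows. They were in 6.02%, 12.3% and 12.4% of all promoter entries. These are matches of letters in a window and not binding sites.

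To see which collagens lay above a fibroblast marker level and above their own level in keratinocytes, each gene was set against 2 references of its own library. The lower end of its interval had to lie above the upper end for *Dcn* plus *Lum*, and above the upper end of its own level in keratin barcodes (no *Dct*, at least 3 UMIs of *Krt10* and *Krt14*, same limits on depth). In early anagen 5 of the 44 genes, or 5 of the 34 with a UMI, met both conditions: *Col12a1*, *Col16a1*, *Col5a3*, *Col4a1* and *Col8a1*. Of all 19151 genes detected there, 20.3% did. Against *Dcn* plus *Lum* alone 20 of the 34 collagens with a UMI passed, beside 65.4% of the detected genes, so that reference by itself sets few genes apart. The 24 keratin barcodes had a median of 31522 UMIs. A gene with 0 UMIs in them had an upper end of 4.30 CPM there. A collagen whose lower end in melanocytes lay below that could therefore not meet the second condition. That reference is the level inside the keratin barcodes, so failing it does not show that a collagen was carried over.

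Among the 5 genes above both references, the order of levels was also that of the shares of cells. *Col12a1* had a UMI in 95.2% of early-anagen melanocytes (94.3 to 95.9) and in 9 of the 24 keratin barcodes, or 37.5% (18.8 to 59.4). Its level in those barcodes was 23.3 CPM (14.2 to 36.0). *Col16a1* had a UMI in 65.3% of melanocytes (63.5 to 67.0) and in 5 of 24 keratin barcodes, *Col5a3* in 35.4% (33.6 to 37.2) and in 0 of 24. *Col4a1* was found in 23.7% of melanocytes (22.1 to 25.3) and *Col8a1* in 15.3% (14.0 to 16.7), and in 3 and 2 of the keratin barcodes. *Col8a1* was the most uneven of the 5, with 25.3% of its UMIs in the richest 1% of cells and up to 28 in a cell, against 4.19% for *Col12a1*.

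A wider reference, chosen after the data were seen, held every barcode of the same depth with at most 5 *Dct* UMIs, 63 in early anagen. It was not separate from the melanocytes, because it included the 2 melanocytes with 1 to 5 *Dct* UMIs. Against it 5 collagens passed again, 4 of them shared: *Col5a3*, *Col8a1*, *Col12a1* and *Col16a1*. *Col4a1* dropped out because these barcodes held 19.8 CPM of it (14.5 to 26.4), in 9 of 63. That interval overlapped the one in melanocytes (13.6 to 15.3). *Col25a1* came in, with 0 UMIs in the 63 barcodes and an upper end there of 1.58 CPM. In the keratin barcodes it also had 0 UMIs, with an upper end of 4.30 CPM.

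In the bulb 0 of the 44 collagens, 27 of which had a UMI, met both conditions, beside 2.05% of the 16128 genes detected there. That library had 2 keratin barcodes, whose 26296 UMIs put the upper end for a gene at 0 there at 140 CPM, so the condition could not be met by any collagen at these levels. Against *Dcn* plus *Lum* alone 3 of the 27 collagens with a UMI passed, beside 66.1% of the detected genes. They were *Col16a1* with 4.90 CPM (4.34 to 5.52), *Col9a3* with 2.92 CPM (2.49 to 3.40) and *Col12a1* with 2.88 CPM (2.45 to 3.36). The *Dcn* plus *Lum* reference had an upper end of 0.574 CPM from 21 UMIs, 20 of them in 1 cell. For comparison, a gene with 1 UMI in the bulb had an upper end of 0.0997 CPM. Further collagens had lower ends above that value: *Col11a2* (0.557), *Col18a1* (0.466), *Col20a1* (0.318), *Col1a2* (0.290), *Col4a4* (0.290), *Col5a3* (0.191) and *Col8a1* (0.111). The count of 3 therefore rested on that cell, and the comparison was not rerun without it. *Col16a1* had a UMI in 6.99% of bulb melanocytes (6.19 to 7.86) and in 1 of 42 barcodes with at most 5 *Dct* UMIs, whose median was 11028 UMIs. The 42 included the 19 melanocytes with 1 to 5 *Dct* UMIs, so the 2 groups were not separate. *Col12a1* had a UMI in 4.04% (3.43 to 4.73) and in 0 of those 42, a share with an upper end of 8.41%. The background in droplets was not estimated, so whether these low bulb levels exceeded it was not tested.

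Between the libraries, 25 collagens had the 10 UMIs over both that were asked for a ratio. In the bulb 22 of them were lower than in early anagen by more than 2-fold, beside 38.7% of all 14932 genes, and 3 were higher by more than 2-fold, beside 14.8%. The median log2 ratio (bulb over early anagen) was −3.81 over the 25 collagens and −0.51 over all genes. For each of the 25 the intervals of the 2 libraries lay apart. *Col12a1* was 78.8-fold lower (log2 ratio −6.30, −6.53 to −6.08), *Col5a3* 61.0-fold lower (−5.93, −6.69 to −5.26) and *Col8a1* 59.0-fold lower (−5.88, −6.84 to −5.07). *Col16a1* kept more of its level, at 9.63-fold lower (−3.27, −3.45 to −3.09), and took the first rank among bulb collagens.

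The bulb count of the type IV pair was too small for a firm ratio. *Col4a1* gave a log2 ratio of −9.65 with an interval from −14.96 to −7.17, and *Col4a2* −7.92 with one from −10.97 to −6.06. *Col28a1*, a relative of type VI collagen, had 159 UMIs in early anagen and 0 in the bulb. It was 39.1-fold lower with the bulb set at 3 UMIs, and its exact interval ended at a log2 ratio of −4.97. The smallest gaps among the 22 were those of *Col1a2* (−1.11, −1.83 to −0.43), *Col15a1* (−1.35, −2.47 to −0.35), *Col18a1* (−1.84, −2.39 to −1.32) and *Col4a4* (−2.19, −2.87 to −1.58). In cells with no UMI of *Krt10* or *Krt14* the ratio of *Col1a2* was −0.25 and that of *Col15a1* −0.80, both short of 2-fold. *Col15a1* and *Col18a1* are the 2 multiplexins, proteoglycan collagens of basement membrane zones.

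The 3 genes that were higher in the bulb encode cartilage chains and a FACIT relative. *Col9a3*, a chain of type IX collagen, had 0.885 CPM (0.686 to 1.12) in early anagen and 2.92 CPM in the bulb, a log2 ratio of 1.72 (1.30 to 2.15). *Col11a2*, a chain of type XI collagen, had 0.238 CPM (0.141 to 0.376) and 0.769 CPM (0.557 to 1.04), a ratio of 1.69 (0.87 to 2.58). *Col20a1* had 0.172 CPM (0.0914 to 0.294) and 0.483 CPM (0.318 to 0.703), a ratio of 1.49 (0.49 to 2.57). All 3 were rare: *Col9a3* had a UMI in 3.59% of bulb cells, with 41.1% of its UMIs in the richest 1% and up to 9 in a cell. The partner chains *Col9a1* and *Col9a2* had 0 UMIs in the bulb.

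At equal depth the contrast stayed. With each cell thinned at random to 5000 UMIs, 23.4% of early-anagen McSCs and 92.5% of bulb melanocytes had no collagen UMI at all. Without thinning these shares were 1.11% and 81.4%, and the median number of collagen genes per cell was 3 in early anagen and 0 in the bulb. *Col12a1* was found at 5000 UMIs in 61.6% (59.8 to 63.4) and 1.42% (1.06 to 1.85) of cells, *Col16a1* in 20.7% (19.2 to 22.2) and 2.81% (2.31 to 3.39). *Col9a3* was found in 0.215% (0.0791 to 0.468) and 1.31% (0.972 to 1.73).

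**Figure D2:**
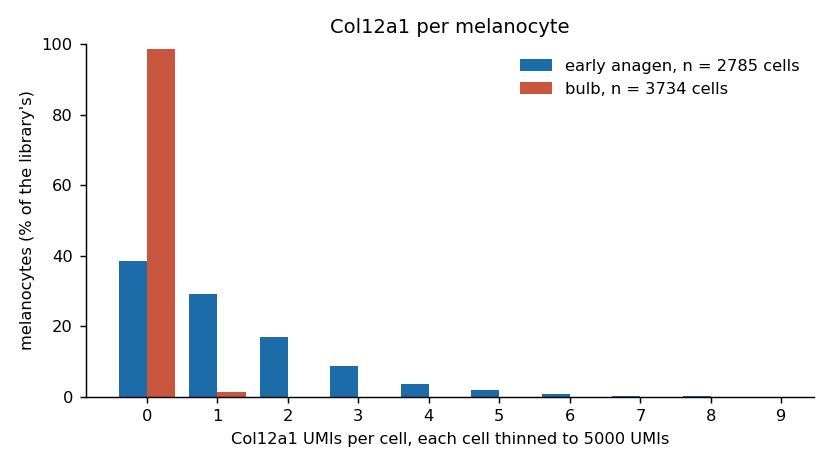
*Col12a1* UMIs per melanocyte, each cell thinned to 5000 UMIs, as the percentage of the 2785 early-anagen (blue) and 3734 bulb (red) cells of each library. In early anagen 38.4% of cells had 0, 29.1% had 1 and the highest cells had 9, while in the bulb 98.6% had 0.

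*Col4a1* and *Col4a2* had the highest phi coefficient (a correlation of presence over cells) of 21 pairs of chains in early anagen. With cells thinned to 10000 UMIs, *Col4a2* had a UMI in 18.1% (14.2 to 22.5) of the 354 cells with *Col4a1* and in 6.33% (5.40 to 7.38) of the rest. The phi coefficient of that pair over 2785 cells of 1 library at 1 depth was 0.15. The 20 other pairs among the 7 collagens above 4 CPM had phi from −0.00 to 0.07. In 4 of them the share of cells with the second gene had intervals that lay apart, and the widest difference of these was 39.8% (37.8 to 41.8) with *Col16a1* among cells with *Col12a1* and 31.1% (27.1 to 35.3) among the rest. Weak correlations in such counts are given as a description.

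Cells were then compared by UMIs of *Oca2*, a late-pigmentation gene that 96.2% of bulb melanocytes and 16.3% of early-anagen McSCs held. In early anagen, with each cell thinned to 10000 UMIs, 288 McSCs had an *Oca2* UMI and 2497 had none, and 21 collagens could be given a ratio. More than 2-fold lower in the *Oca2*+ cells were 5, beside 5.34% of all 12879 genes, and more than 2-fold higher were 5, beside 4.36%. The interval of the ratio lay below 0 for 5 collagens, beside 12% of all genes, and above 0 for 1, beside 13.9%. The median log2 ratio (*Oca2*+ over *Oca2*− cells) was −0.28 for the collagens and 0.01 for all genes. The 5 lower by fold and the 5 lower by interval shared 2 genes, *Col4a1* and *Col8a1*.

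*Col4a1* differed most among the genes with an interval off 0. It had 17.5 CPM (15.9 to 19.2) in cells with no *Oca2* UMI, 3.03 CPM (0.826 to 7.76) with 1 and 2.56 CPM (0.699 to 6.57) with 2 or more, a log2 ratio of −2.65 (−3.87 to −1.66). *Col8a1* had 15.2 CPM (13.7 to 16.8), 6.82 CPM (3.12 to 12.9) and 5.13 CPM (2.21 to 10.1) in the same order, a ratio of −1.37 (−2.16 to −0.67) that was −0.57 when cells were thinned to 5000 UMIs. The remaining genes with an interval below 0 were *Col4a2* at −0.84 (−1.70 to −0.09), *Col5a3* at −0.81 (−1.32 to −0.33) and *Col12a1* at −0.77 (−0.91 to −0.63).

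*Col12a1* had 258 CPM (252 to 264) in cells with no *Oca2* UMI, 166 CPM (145 to 189) with 1 and 139 CPM (121 to 159) with 2 or more, so the *Oca2*+ McSCs still held a level far above that of the bulb. *Col16a1* showed no such order, with 53.3 CPM (50.4 to 56.2), 51.5 CPM (40.0 to 65.3) and 50.0 CPM (39.5 to 62.4) and a ratio of −0.07 (−0.33 to 0.18). The intervals of these 2 FACIT genes did not overlap, either by *Oca2* or between the libraries.

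*Col1a2* was the collagen with an interval above 0, at 1.84 (0.32 to 3.18), from 7 UMIs in 288 *Oca2*+ cells and 17 UMIs in 2497 others. The other 4 more than 2-fold higher were *Col6a3*, *Col15a1*, *Col23a1* and *Col11a1*, with 2 to 5 UMIs each in the *Oca2*+ cells and intervals that held 0. Without thinning *Col6a3* was at −0.17 and *Col23a1* at −0.79. With 2 or more *Oca2* UMIs against 0, *Col1a2* was at 0.91, short of 2-fold. The other 3 more than 2-fold lower were *Col28a1* (−1.58, −3.89 to 0.02), *Col4a5* (−1.50, −4.58 to 0.43) and *Col27a1* (−1.34, −6.71 to 1.29), and their intervals held 0 too. Thinned to 5000 UMIs, *Col4a5* was at 0.45. The *Oca2*+ McSCs were somewhat deeper before thinning (median 27245 against 24132 UMIs), and 24.0% of them had a UMI of the proliferation genes *Mki67* or *Top2a*, against 38.3% of the others.

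**Figure D3:**
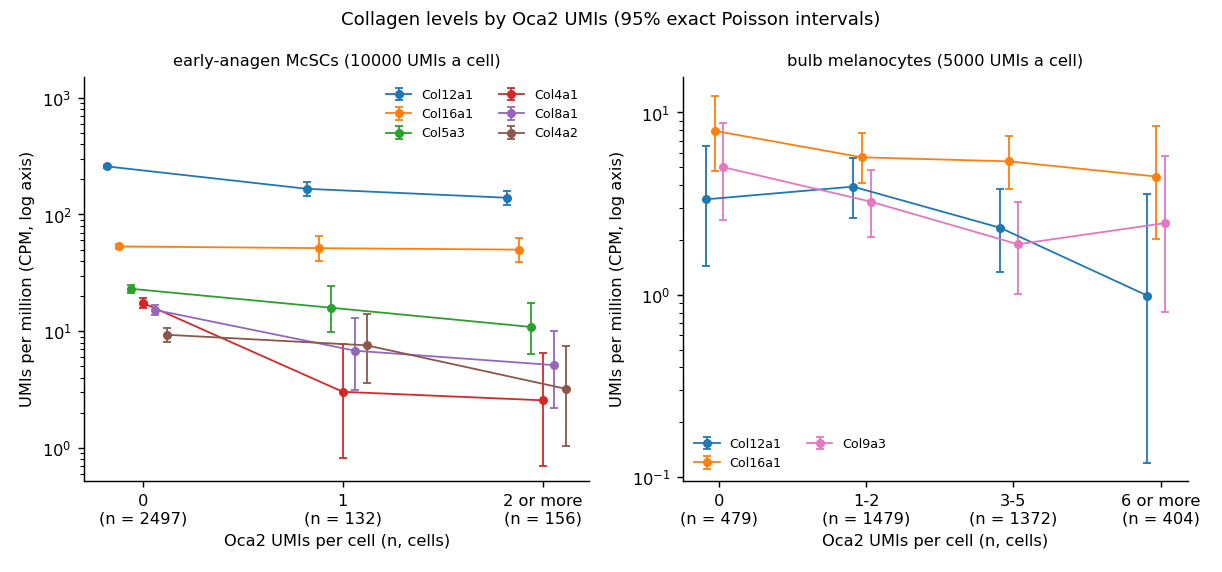
Collagen levels in CPM (log axis, 95% exact Poisson intervals) by the number of *Oca2* UMIs per cell, in early-anagen McSCs thinned to 10000 UMIs (left) and bulb melanocytes thinned to 5000 (right). On the left *Col4a1* goes from 17.5 to 2.56 CPM and *Col12a1* from 258 to 139 while *Col16a1* stays between 53.3 and 50.0, and on the right the intervals of each gene overlap.

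In the bulb, thinned to 5000 UMIs, 404 melanocytes with 6 or more *Oca2* UMIs were set against 479 with none, and 3 collagens could be given a ratio. More than 2-fold lower were 2, beside 7.39% of all 9545 genes, and more than 2-fold higher were 0, beside 1.75%. *Col12a1* had 3.34 CPM (1.44 to 6.58) at no *Oca2* UMI, 3.92 CPM at 1 to 2, 2.33 CPM at 3 to 5 and 0.990 CPM (0.120 to 3.58) at 6 or more, a ratio of −1.75 (−5.03 to 0.57). *Col9a3* had 5.01, 3.25, 1.90 and 2.48 CPM, a ratio of −1.02 (−2.87 to 0.59), and *Col16a1* 7.93, 5.68, 5.39 and 4.46 CPM, a ratio of −0.83 (−2.16 to 0.38). All 3 intervals held 0, so at this depth no difference by *Oca2* was detectable within the bulb. The counts behind the ends were small, with 2 *Col12a1* UMIs in the 404 cells.

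*Oca2*+ cells of both libraries were also compared directly, as an alternative chosen after the data were seen, with 196 early-anagen McSCs and 3255 bulb melanocytes at 5000 UMIs. *Col12a1* had 158 CPM in the first and 2.89 CPM in the second, a log2 ratio of −5.78 (−6.28 to −5.30). *Col16a1* had 42.9 and 5.41 CPM, a ratio of −2.99 (−3.53 to −2.42), and *Col5a3* 14.3 and 0.430 CPM, a ratio of −5.05 (−6.60 to −3.65). The distance between the libraries was also there among cells with at least 1 *Oca2* UMI. These cells were not matched for the level of *Oca2*. Of the 196 early-anagen cells 164 had 1 to 2 *Oca2* UMIs, and of the 3255 bulb cells 1479 did. For *Col9a3* the ratio was 1.34 with an interval from −1.22 to 6.68, from 1 UMI in the early-anagen cells.

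Of the leading collagens *Col12a1*, *Col16a1* and *Col5a3* were lower in cycling McSCs, in a comparison where many genes were. In early anagen 1026 McSCs had a *Mki67* or *Top2a* UMI and 1759 had neither, at 10000 UMIs. Of 21 collagens 2 were more than 2-fold lower in the first, beside 4.1% of all 12878 genes, and 0 were higher, beside 5.73%. By interval 5 collagens were lower, beside 21% of all genes, and 0 higher, beside 20.3%. The 2 past 2-fold were *Col28a1*, at −1.13, and *Col18a1*, at −1.03 (−1.87 to −0.26). *Col12a1* had 208 CPM in cycling and 270 CPM in other cells, a log2 ratio of −0.38 (−0.45 to −0.30), *Col16a1* a ratio of −0.52 (−0.68 to −0.36) and *Col5a3* one of −0.33 (−0.58 to −0.08). *Col4a1* had 15.01 and 16.5 CPM, a ratio of −0.14 (−0.43 to 0.15), and the interval of *Col8a1* held 0 too, at −0.24 (−0.56 to 0.06).

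A collagen chain must be hydroxylated and folded by a set of enzymes and chaperones in the endoplasmic reticulum, exported in large carriers and trimmed outside the cell. The 2 highest processing genes of each library differed by less than 2-fold. *Ppib*, a proline isomerase, had 823 CPM (817 to 830) in early anagen and 599 CPM (593 to 605) in the bulb, and *Serpinh1*, the collagen chaperone HSP47, 367 CPM (362 to 371) and 428 CPM (423 to 434). Others differed more in either direction. *P4hb* had 219 and 65.5 CPM, a log2 ratio of −1.74 (−1.80 to −1.69), and *Plod1* 36.9 and 86.8 CPM, a ratio of 1.23 (1.17 to 1.30). Of 19 processing genes 17 could be given a ratio. In the bulb 7 were lower by more than 2-fold, beside 38.7% of all genes, and 4 were higher, beside 14.8%. The median log2 ratio was −0.46, against −0.51 over all genes. These values over all genes also stand beside the lists that follow.

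The export and extracellular list leaned lower, with 7 of 12 genes lower and 1 higher by more than 2-fold and a median of −1.21. *Pcolce2*, an enhancer of procollagen cleavage, had 323 CPM (319 to 327) in early anagen and 7.41 CPM (6.71 to 8.16) in the bulb, a log2 ratio of −5.45 (−5.59 to −5.31). Of the export receptors, *Mia3* differed little, at −0.16 (−0.24 to −0.08), and *Mia2* was lower in the bulb but within 2-fold, at −0.84 (−0.91 to −0.77). Of the cross-linking enzymes *Lox* had 0 UMIs in both libraries, *Loxl2* had 23.0 CPM (21.9 to 24.1) and 1.15 CPM (0.882 to 1.46), and *Loxl3* had 4.36 CPM (3.90 to 4.85) and 4.08 CPM (3.57 to 4.65).

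Of the 8 receptor genes 5 could be given a ratio and 3 were lower, 0 higher, with a median of −1.06. *Itgb1*, the shared beta chain of collagen-binding integrins, had 320 CPM (316 to 324) and 153 CPM (150 to 156), a log2 ratio of −1.06 (−1.10 to −1.03). *Ddr1*, a collagen-activated kinase, had 29.8 CPM and 31.8 CPM, a ratio of 0.09 (0.00 to 0.18). *Itga1*, named after its values were seen, had 14.4 CPM (13.5 to 15.3) and 0.125 CPM (0.0504 to 0.258), the widest gap of the list.

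Of 15 basement membrane partners 12 could be given a ratio, 8 lower and 2 higher, with a median of −1.69. *Sparc*, a collagen-binding protein of the matrix, was higher in the bulb, with 847 CPM (841 to 854) and 3792 CPM (3776 to 3808), a ratio of 2.16 (2.15 to 2.18). The laminin chain *Lamc1* had 47.9 CPM (46.3 to 49.4) and 12.3 CPM (11.4 to 13.3), a ratio of −1.96 (−2.08 to −1.84), and the linker *Nid1* 25.7 and 21.0 CPM, a ratio of −0.30 (−0.40 to −0.19). The 7 of 17, 7 of 12, 3 of 5 and 8 of 12 lower genes of the 4 lists stand beside 38.7% of all genes, and the 4, 1, 0 and 2 higher genes beside 14.8%.

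**Figure D4:**
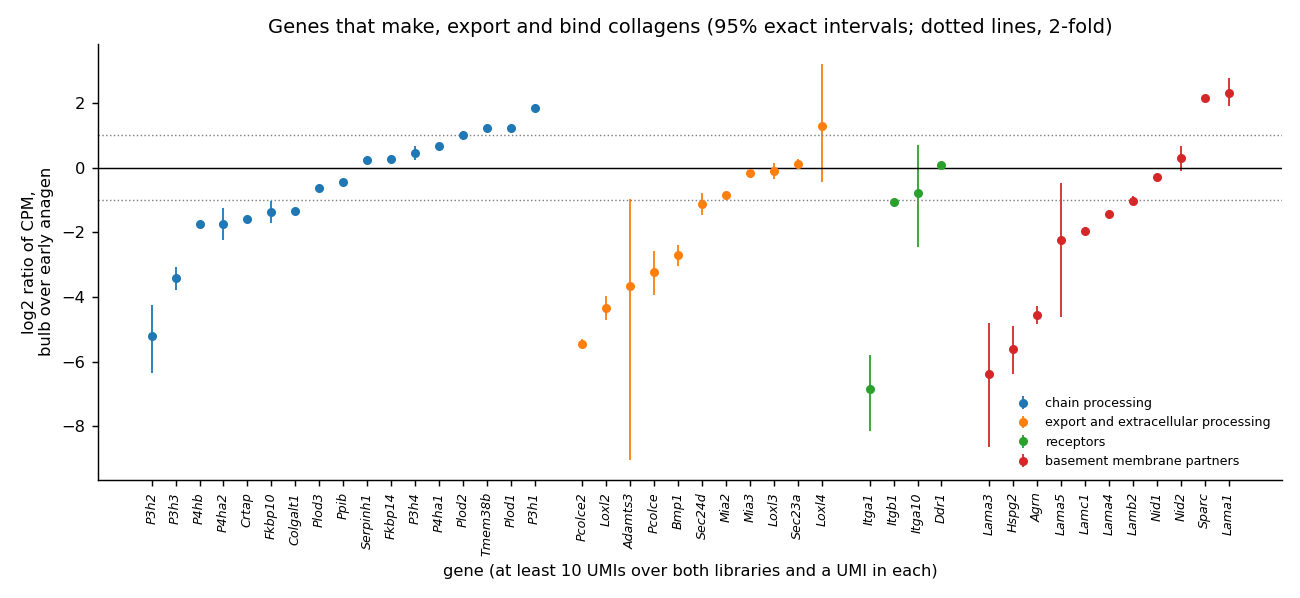
Log2 ratio of CPM, bulb over early anagen, with 95% exact intervals, for genes that process, export and bind collagens, in 4 lists marked by colour; dotted lines are at 2-fold, and genes with 0 UMIs in the bulb (*Tll1*, *Itga2*, *Lama2*) are not drawn. *Ppib* and *Serpinh1* lie within 2-fold at −0.46 and 0.22, *Pcolce2* is at −5.45 and *Sparc* at 2.16.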

How the data were processed

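The values deposited by the authors are raw UMI counts of each gene in each barcode, made with Cell Ranger 6.0.1 (submitters' processing notes) on mm10/GRCm38. No filter on cell type had been applied. Melanocytes were selected by the UMI limits stated above, and the depth was 75718468 UMIs in early anagen and 55883067 in the bulb. Counts were summed over cells and scaled to CPM, with exact Poisson intervals for CPM, exact conditional binomial intervals for log2 ratios and Clopper-Pearson intervals for shares. These cover counting error only. Each condition had 1 library, so no p-value was computed, and calls mean a fold of more than 2 in genes with at least 10 UMIs over both groups. A gene with 0 UMIs was set at 3 counts for a bound. Comparisons by *Oca2* and by cycling used cells thinned at random to 10000 UMIs (early anagen) or 5000 (bulb). No doublet caller was run, and the 5% of cells with the most UMIs were left out as an alternative. The scripts were tested on simulated data.

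The collagens, the lists of other genes and the rules were chosen with earlier results of these data known. Named genes are the collagens above both references, the 8 highest in each library, those past 2-fold by *Oca2*, *Col1a1*, *Col1a2*, *Col3a1* and *Col17a1*, and the 2 highest of each other list in each library. Others named were chosen after their values were seen. Gene positions came from GENCODE vM21 (GRCm38) and promoter sequence from RefSeq (GRCm38.p6). The work used Python 3.11.15, numpy 2.4.6, scipy 1.17.1, pandas 2.3.3 and, for TMM factors, edgeR 4.0.16 in R 4.3.3.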

Additional observations from a re-analysis of the deposited data

Results flagged for a closer look

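The keratin barcodes of the early-anagen library (24 barcodes, no *Dct* UMI) lie outside the melanocyte comparison and held collagens above their level in melanocytes of the same library. *Col17a1* had 290.0 CPM there (255 to 328) and 0.0528 CPM in melanocytes. *Col18a1* had 61.7 CPM against 2.36, *Col7a1* 43.1 against 0.251 and *Col23a1* 17.5 against 0.343. *Col4a5* had 9.32 CPM against 2.21, *Col4a6* 6.99 against 0.106 and *Col6a1* 5.82 against 0.0792. *Col17a1* and *Col7a1*, which encodes the anchoring fibril collagen, are known products of basal keratinocytes. The gaps are those of 24 barcodes of 1 library and were not tested.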

How the results depend on the processing

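No paired analysis was possible because each condition had 1 library, and for the same reason no replicate could be left out. Of 82 alternative values of the main counts and medians (the bulb count above both references left out), 70 stayed close to the main value, 12 moved and 0 reversed. Against *Dcn* plus *Lum* alone, an alternative chosen after the data were seen, 20 collagens in early anagen and 3 in the bulb were above the reference, in place of 5 and 0. In the bulb 20 of the 21 UMIs of that reference lay in 1 cell, so the count of 3 rested on that cell. The other 9 alternatives gave 5 in early anagen. In the bulb the keratin reference left no room for another count than 0, so its values under other settings say nothing of stability. With at least 10 CPM asked in either library, which tests fewer genes, 5 collagens were lower and 0 higher in the bulb, and in *Oca2*+ cells at 5000 UMIs (also chosen later, with fewer cells) 6 and 1, with a median log2 ratio of −2.32. By *Oca2* in early anagen, unthinned cells gave 1 collagen more than 2-fold higher in place of 5, and cells thinned to 5000 UMIs gave 3 lower and 2 higher. By *Oca2* in the bulb, 3 or more against fewer than 3 UMIs gave 1 lower and 1 higher, and a minimum of 1 UMI in both groups gave 4 lower. TMM factors gave log2 ratios of −5.99 for *Col12a1* and −2.95 for *Col16a1*, and moved the median of all genes from −0.51 to −0.19, while a total without mitochondrial, ribosomal and melanosome genes moved it to −0.64. They gave 21 and 22 collagens lower, and 3 higher in each case. With *Krt10* and *Krt14* at 0 the ratio of *Col1a2* was −0.25 and that of *Col15a1* −0.80. In the bulb, counts limit the ratios of single genes, as with 1 UMI of *Col4a1*.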
